A study of Mus musculus with 4 samples.

Results

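The V segments of the T cell receptor alpha chain were followed in mouse primary cells labelled regulatory T cell, as all genes whose identifier maps in GENCODE M21 to a symbol beginning with Trav. This choice took in 128 of the 50600 genes counted, all on the plus strand of chromosome 14, from 52427928 to 53977678 on build mm10. The study sequenced total RNA of cells from strain C57BL/6NJ in 4 libraries, which are biological replicates 1 to 4 of 1 group, labelled regulatory T cell, with no second group to set them against. The labels give 4 biosamples and 1 donor record, no sex or age, and cite a library method titled for poly(A) RNA and another for the differentiation of CD4 T cells, while the count columns carry a mark for activation at 0 h. Nothing says that the replicates came from separate animals, so spreads and p-values measure the differences between these 4 samples, which may be technical. The libraries held 25573253, 62090744, 23000465 and 61943411 gene counts in replicates 1 to 4. The Trav genes took 5130, 13429, 4692 and 12841 of them, so the precision for a rare segment was lower in replicates 1 and 3.

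Each alpha chain is made from 1 V segment joined to a J segment, which is then spliced to the constant gene Trac. The joining is done in the thymus by the Rag1 and Rag2 recombinase, and it can be repeated on the same chromosome, with V segments near the J cluster used in early rounds and more distant ones in later rounds. The V segment carries the loops of the receptor that lean on the MHC molecule, and the set of V segments used is a coarse view of the receptor repertoire. In the mouse, invariant natural killer T cells use Trav11 and mucosal-associated invariant T cells use Trav1, and segments with dv in their symbol can also be used by the delta chain.

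Of the 128 segments, 108 are annotated as V genes and 20 as V pseudogenes, and they fall into 23 families, 9 of them with a single member. The middle of the locus is repeated in C57BL/6 mice, and the symbols tell the copies apart: 55 segments have no suffix, 39 carry d and 34 carry n. Exon lengths ran from 155 to 595 bases, with a median of 359 bases.

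The copies matter for what could be counted, because a fragment that aligned equally well to several genes was left out of the deposited counts. Of 27 pairs of a d and an n copy that are both annotated as V genes, 16 had the same V exon letter for letter. The other 11 differed by 1 to 30 bases. Pairs that hold a pseudogene were left out. Here and below, bases left unpaired in the alignment of 2 exons count as differences, so a longer annotated exon adds to them. The last 120 bases of 3 sets of V exons show these cases, read from the GENCODE M21 transcripts on mm10, plus strand, 5′ to 3′, with capitals for the bases that differ within a set. The first set holds the copies of Trav14-3, which are all counted, at chr14:53078926-53079045, chr14:53370456-53370575 and chr14:53763575-53763694.
Trav14d-3-dv8: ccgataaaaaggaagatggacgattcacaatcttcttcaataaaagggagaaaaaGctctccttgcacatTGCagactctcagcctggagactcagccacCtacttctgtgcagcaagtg
Trav14n-3: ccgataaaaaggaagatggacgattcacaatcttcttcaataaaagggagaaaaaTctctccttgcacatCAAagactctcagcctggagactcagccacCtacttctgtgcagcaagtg
Trav14-3: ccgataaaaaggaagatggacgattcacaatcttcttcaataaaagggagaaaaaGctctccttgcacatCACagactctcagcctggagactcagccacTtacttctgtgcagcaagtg
Over the whole V exon, Trav14d-3-dv8 differed from Trav14n-3 at 10 bases and from Trav14-3 at 8. In the second set, at chr14:52916307-52916426, chr14:53227281-53227400 and chr14:53616795-53616914, the d and n copies are the same over the whole V exon, and only the copy without a suffix stands apart, by 14 bases.
Trav12d-2: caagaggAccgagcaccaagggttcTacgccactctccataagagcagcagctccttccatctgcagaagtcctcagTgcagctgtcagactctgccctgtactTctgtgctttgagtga
Trav12n-2: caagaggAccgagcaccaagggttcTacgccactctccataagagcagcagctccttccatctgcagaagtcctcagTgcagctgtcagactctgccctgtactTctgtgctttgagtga
Trav12-2: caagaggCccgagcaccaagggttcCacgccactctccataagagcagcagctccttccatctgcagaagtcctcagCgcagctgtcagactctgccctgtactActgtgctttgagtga
In the third set, the stretch of the d copy at chr14:52824793-52824912 and that of the copy without a suffix at chr14:53519739-53519858 share every base, so no capitals appear. The exon of Trav11 is annotated 1 base longer, and that last base, left out here, is the 1 difference over the whole V exon.
Trav11d: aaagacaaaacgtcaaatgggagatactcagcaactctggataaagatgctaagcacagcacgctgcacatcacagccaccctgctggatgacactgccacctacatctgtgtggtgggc
Trav11: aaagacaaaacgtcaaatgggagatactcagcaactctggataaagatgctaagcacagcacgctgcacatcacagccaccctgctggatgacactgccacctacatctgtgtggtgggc

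Counts differed sharply between these sets. Trav12-2 had 740 counts over the 4 libraries, against no count in any library for Trav12d-2 and Trav12n-2. Trav11 had 1 count and Trav11d had 5. Trav14-3 had 1379 counts, against 2698 for Trav14d-3-dv8 and 1869 for Trav14n-3. In all, 42 of the 128 segments had no count in any library, and 32 of these are annotated as V genes. The 4 libraries allow such a segment at most 0.0223 to 0.0639% of the Trav counts (3 counts in the library), for counting error only and only for fragments that could be placed. In chromosome order, the first 8 of the 42 were Trav4-1, Trav6d-6, Trav7d-5, Trav12d-1, Trav14d-1, Trav3d-2, Trav9d-2 and Trav4d-3.

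Sequence sharing was measured as the percentage of a segment's 50-base words that occur in another gene, a description that does not depend on the counts. All words were shared in 41 segments, of which 35 had no count and the other 6 had 17 counts together, at most 7 each. Of the 87 segments with some words of their own, 80 were counted. The 7 that were not are the pseudogenes Trav4-1, Trav5d-3, Trav5n-3, Trav15n-3, Trav3-2 and Trav22 and the V gene Trav12n-3, 99.7% of whose words are shared. Across the 128 segments, those with more shared words had fewer counts, with a Spearman rho of -0.64 over segments of the same 4 libraries. All 32 V genes without a count share at least 99.7% of their words, so a count of 0 gives no level for them.

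**Figure D1:**
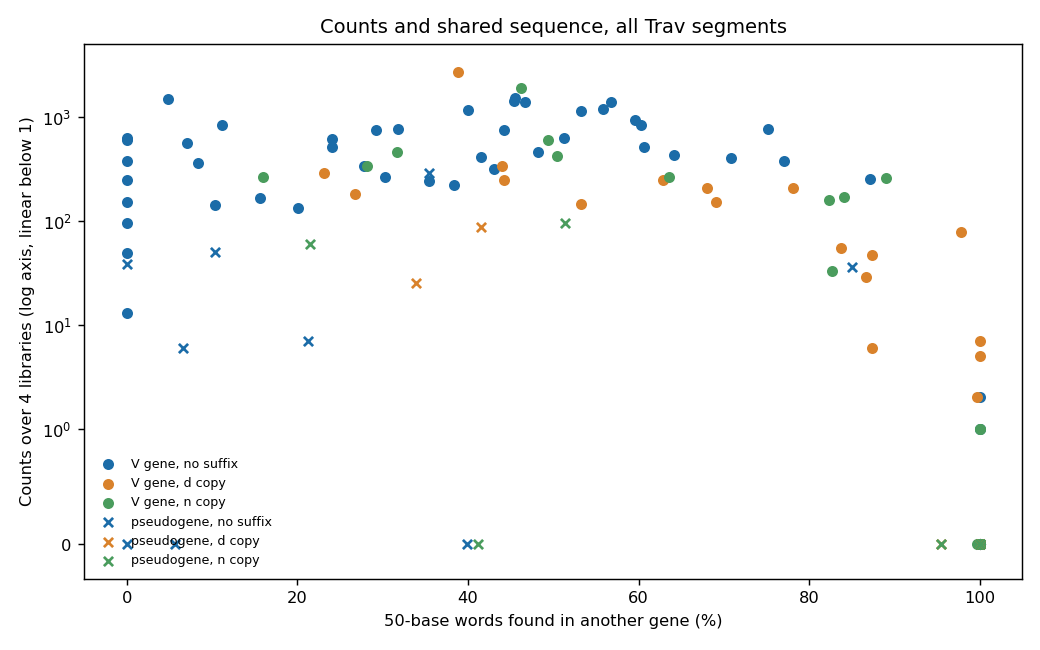
Counts summed over 4 libraries (vertical axis, log scale above 1) against the percentage of 50-base words found in another gene (horizontal axis) for the 128 Trav segments. Circles are V genes, crosses are pseudogenes, and colours give the copy (no suffix, d or n). The 41 segments at 100% lie at 7 counts or fewer, while the segments at 0 counts with less than 50% of their words shared are 4 pseudogenes.

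Taken over the whole locus, Trav expression was even between libraries. The Trav genes summed to 200.6, 216, 204 and 207 CPM (counts scaled to a fixed sum per library) in replicates 1 to 4 (207 ± 6.74, SD, n = 4). Per length, the Trav genes summed to 1864 ± 81.1 TPM (counts scaled by exon length to a fixed sum per library), against 3435 ± 137 TPM for Trac, the constant gene of the same chain, a ratio of 0.543 ± 0.0237 (SD, n = 4). A fragment that overlapped exons of more than 1 gene, such as a V exon and a J segment or Trac, was not counted for any. Fragments from near-identical copies were not counted either, so this ratio is not a ratio of molecules. In bulk RNA, fewer cells that use a segment and less RNA per cell cannot be told apart.

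The fragments that could be placed were spread over many segments, with a few in front. Trav14d-3-dv8 (ENSMUSG00000094619.2, chromosome 14, 53078452 to 53079045) led in every library, with 343, 946, 393 and 1016 counts in replicates 1 to 4. These were 6.69, 7.04, 8.38 and 7.91% of the Trav counts (7.50% ± 0.776, SD, n = 4), or 119 ± 11.1 TPM. Trav14n-3 (ENSMUSG00000076824.3, chromosome 14, 53370077 to 53370575) came next with 253, 694, 235 and 687 counts, a share of 5.11% ± 0.185 and 102 ± 6.49 TPM. The leading segment was above it within each of the 4 libraries, in share and in TPM, although the TPM ranges over libraries overlap (103.6 to 129 TPM and 96.5 to 109.7 TPM). Of their 50-base words, 38.8% (Trav14d-3-dv8) and 46.2% (Trav14n-3) are shared, against 56.7% for Trav14-3. The part of sharing in the order of these copies was not tested. The next 3 by share were Trav14-2 (4.17% ± 0.751), Trav14-1 (4.15% ± 0.327) and Trav13-1 (4.03% ± 0.554). These differ from each other by less than their spread. Per length, Trav13-1 came after these leading segments at 87.9 ± 10.99 TPM, followed by Trav14-2 (77.9 ± 14.6 TPM), Trav14-1 (75.2 ± 6.78 TPM) and Trav14-3 (71.6 ± 7.86 TPM).

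Behind them came Trav9-2 (3.96% ± 0.422 of Trav counts), Trav14-3 (3.80% ± 0.355), Trav9-4 (3.28% ± 0.285), Trav3-3 (3.24% ± 0.474) and Trav4-4-dv10 (3.23% ± 0.218). Trav9-1, Trav10, Trav7-5, Trav7-4 and Trav5-4 closed the first 15, with mean shares between 2.06 and 2.50%. The first 5 took 25.0% ± 2.19 of the Trav counts, the first 10 took 42.5% ± 1.63 and the first 15 took 53.7% ± 1.05 (SD, n = 4). It took 14 segments to reach 50% of the counts. The effective number of segments, the inverse of the sum of squared shares, was 36.3 ± 1.74 and ran from 33.8 to 37.5 over the libraries. It covers only fragments that could be placed. Of the first 15, 13 had no suffix, 13 lay in the part of the locus nearest Trac, and 14 were also among the first 15 by TPM.

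**Figure D2:**
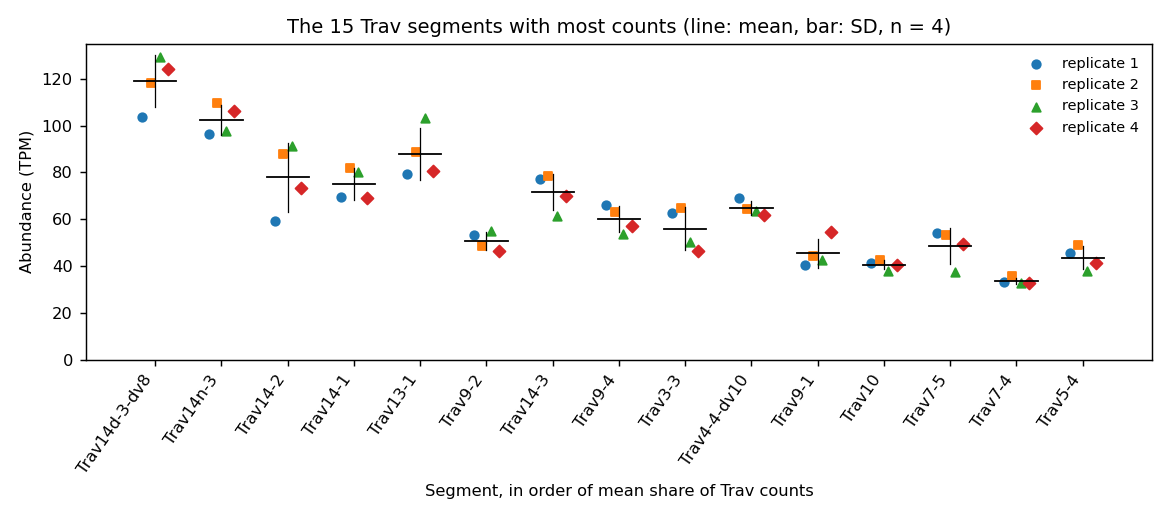
Abundance in TPM (vertical axis) of the 15 segments with the highest mean share of Trav counts, in that order (horizontal axis). Symbols are the 4 replicates, lines the mean and bars the SD. Trav14d-3-dv8 and Trav14n-3 stand highest, at means of 119 and 102 TPM, and Trav9-2 stands lower per length (50.7 TPM) than its place by share.

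By family, Trav14 held 23.0, 24.8, 26.3 and 24.8% of the Trav counts in replicates 1 to 4 (24.7% ± 1.37, SD, n = 4), from 9 segments of which 3 had no count. The highest value of any other family in a library was 11.8%. Trav9 followed with 11.4% ± 0.567, Trav7 with 9.92% ± 0.87, Trav6 with 8.65% ± 0.491 and Trav13 with 8.50% ± 0.698. In the order of these families, Trav7, Trav6 and Trav13 change places between libraries. The highest segments of these 5 families were Trav14d-3-dv8, Trav9-2, Trav7-5 (2.26% ± 0.331), Trav6-7-dv9 (1.80% ± 0.22) and Trav13-1.

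The middle rank held Trav4 (5.70% ± 0.371), Trav12 (5.32% ± 0.312), Trav8 (4.60% ± 0.0967) and Trav3 (4.27% ± 0.35), led by Trav4-4-dv10, Trav12-3 (2.06% ± 0.311), Trav8-1 (1.36% ± 0.189) and Trav3-3. Trav10 (3.15% ± 0.195), Trav16 (3.09% ± 0.0813), Trav5 (2.72% ± 0.165) and Trav15 (2.35% ± 0.196) were lower, led by Trav10, Trav16 (1.23% ± 0.204), Trav5-4 (2.06% ± 0.177) and Trav15-1-dv6-1 (1.50% ± 0.193). The families differed in segments without a count and in word sharing. No count was found in 6 of 10 Trav12, 5 of 8 Trav3 and 6 of 9 Trav5 segments, against 0 of 5 Trav8 segments. Median word sharing was 99.8% in Trav12, 95.5% in Trav5 and 35.4% in Trav8. The order of families covers only fragments that could be placed, and the part of sharing in it was not tested. The 9 families with 1 member have no words in common with any other gene and took 5.42% ± 0.188 together. Among these, Trav17 (1.73% ± 0.139), Trav21-dv12 (1.64% ± 0.0783) and Trav19 (1.06% ± 0.143) were highest, and Trav22, a pseudogene, had no count. Trav23, the segment nearest Trac, had 0, 2, 3 and 8 counts.

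**Figure D3:**
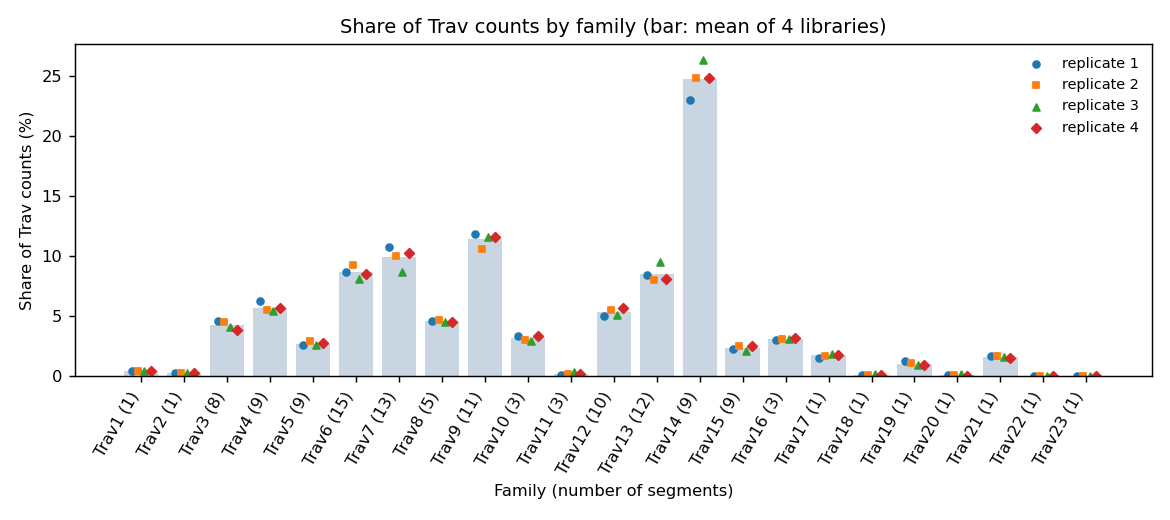
Share of Trav counts in percent (vertical axis) for the 23 Trav families in the order of their numbers (horizontal axis, number of segments in brackets). Bars are means and symbols the 4 replicates. Trav14 lies between 23.0 and 26.3% in every replicate, and the next family, Trav9, between 10.6 and 11.8%.

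Along the chromosome, most Trav counts came from the end next to the J cluster and Trac (54220521 to 54224206). The segments were put in 3 bins of nearly equal number by their start. The J-proximal bin, 42 segments from Trav7-4 to Trav23 (53461099 to 53977678), held 65.1% ± 0.997 of the Trav counts, the middle bin of 43 segments held 26.1% ± 0.88 and the J-distal bin, 43 segments from Trav1 to Trav8d-2 (52427928 to 53042891), held 8.83% ± 0.593 (SD, n = 4). Mean counts per segment were 80.3, 210, 73.0 and 195 in the J-proximal bin in replicates 1 to 4, against 10.4, 28.6, 8.77 and 28.0 in the J-distal bin. The log2 ratio was 2.92 ± 0.11, a 7.56-fold difference, higher at the J-proximal end in 4 of 4 libraries (exact two-sided sign-flip test, p = 0.125, adjusted p = 0.125 over 3 tests). With 4 libraries, 0.125 is the smallest p that this test can give, so none of the 3 tests could pass 0.05.

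Sequence sharing ran with position. The J-proximal bin holds 2 fully shared segments and 3 with no count, the middle bin 19 of each, and the J-distal bin 20 of each. With the segments that share under 50% of their words, 29 against 13, the log2 ratio was 1.49. By counts per 100-base word found in no other Trav segment, it was 1.73. This alternative, added after the data were seen, used the 38 against 19 segments with at least 100 such words. The part of sharing in the remaining ratio was not tested. Among the 41 V genes with under 50% of their 50-base words shared, the share of Trav counts followed the chromosome order only loosely. Spearman's rho was 0.26 over segments.

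The rise toward Trac was not steady. The block of 47 segments without copies in between, from Trav7-2 to Trav23, was put in 5 bins. From far to near, they held 12.8% ± 0.564, 18.8% ± 0.937, 19.99% ± 0.281, 11.7% ± 0.731 and 5.22% ± 0.187 of the Trav counts. In each library the last bin, Trav3-4 to Trav23, was the lowest of the 5, with a median over its 9 segments of 3.50 TPM, against 33.7 TPM in the third bin. Of these 9, 3 are pseudogenes, and the median of the 6 V genes was 11.4 TPM (0.728 to 36.7 TPM), against 44.8 TPM for the 8 V genes of the third bin. The last bin's segments have a median sharing of 0%. At the far end of the locus, the 8 segments from Trav1 to Trav6-2 also have no d or n copies between them and share at most 35.4% of their words. They took 3.78% ± 0.421 of the counts, with a median of 8.77 TPM, and 1 of them, the pseudogene Trav4-1, had no count. Trav7-1 led them with 20.7 ± 2.7 TPM.

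**Figure D4:**
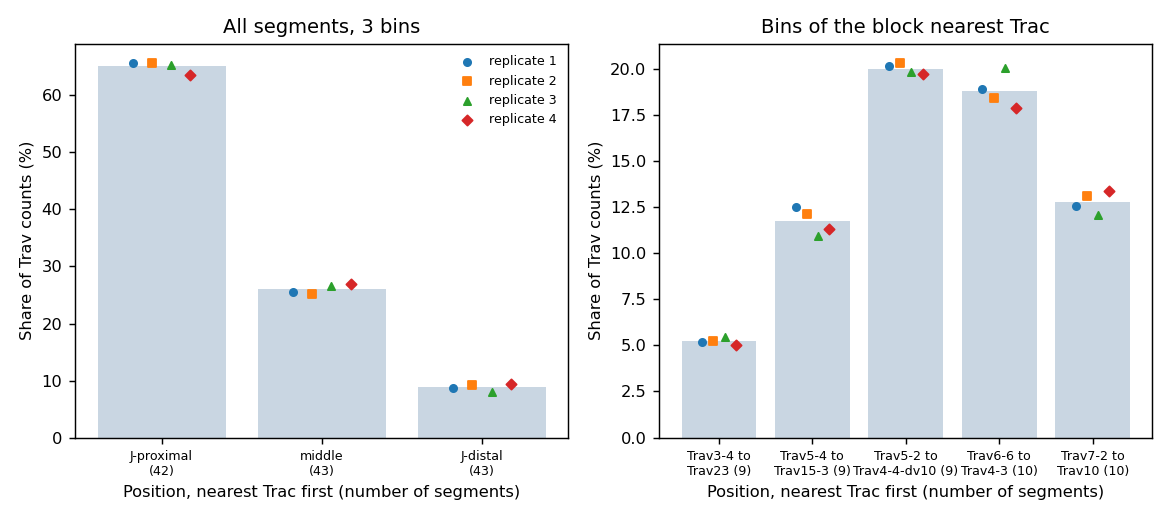
Share of Trav counts in percent (vertical axes) by position, with the bins nearest Trac at the left (horizontal axes, number of segments in brackets). Left, 3 bins of all 128 segments; right, 5 bins of the 47 segments from Trav7-2 to Trav23. Bars are means and symbols the 4 replicates. The J-proximal bin holds 65.1% of the counts, but within the block nearest Trac the nearest bin is the lowest at 5.22%.

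**Figure D5:**
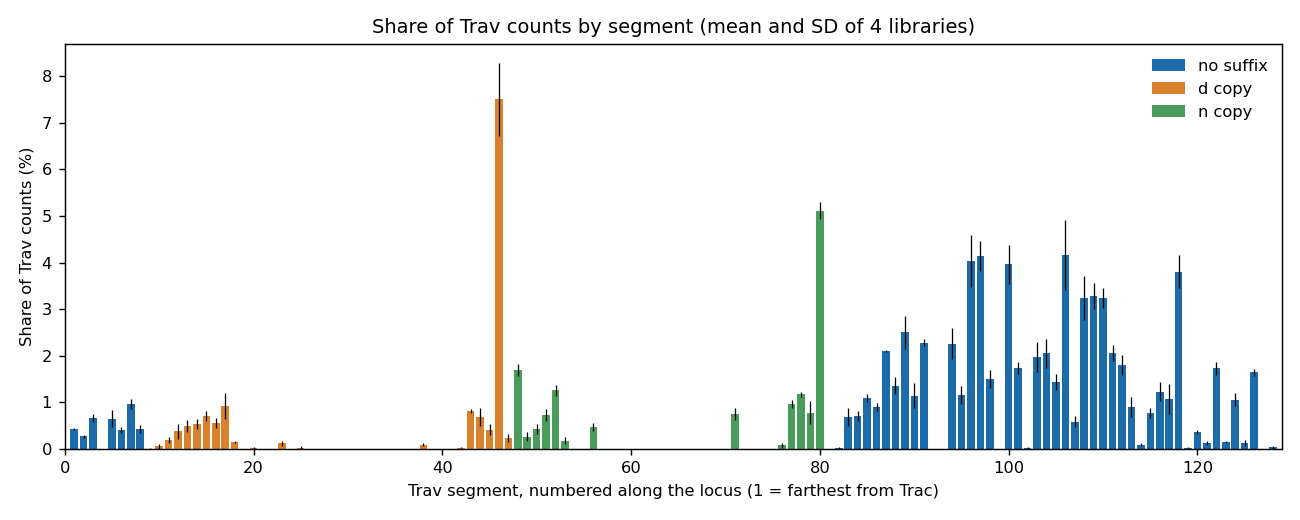
Share of Trav counts in percent (vertical axis, mean and SD of 4 libraries) for each of the 128 segments in chromosome order (horizontal axis, 1 is farthest from Trac). Colours give the copy. Trav14d-3-dv8 (number 46) and Trav14n-3 (number 80) stand out from the low values around them, and long runs of d and n copies sit at 0.

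Among the copies of the repeated region those 2 segments stood alone, and the next highest, Trav7n-4, had 1.69% ± 0.132 of the Trav counts. Segments without a suffix took 72.3% ± 0.639 of the Trav counts, d copies 13.9% ± 0.46 and n copies 13.8% ± 0.412. Among V genes, the 46 without a suffix had 79.8, 209, 72.5 and 196 counts per segment, against 22.2, 57.0, 20.5 and 57.6 for the 62 with d or n. The log2 ratio was 1.83 ± 0.05, 3.55-fold, higher without a suffix in 4 of 4 libraries (exact two-sided sign-flip test, p = 0.125, adjusted p = 0.125). It turned to -0.42 with V genes that share under 50% of their words (31 against 10). Without Trav14d-3-dv8 and Trav14n-3 in that set, a choice made after the data were seen, it was 0.67.

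The 15 segments without a suffix that belong to the 16 d and n pairs with the same V exon had 222 to 1505 counts each, from Trav15-2-dv6-2 up to Trav14-2. The 16 pairs themselves had 8 counts in all, 6 of them from Trav15d-1-dv6d-1, and in 13 pairs neither copy had a count. In 10 of the 11 pairs of V genes that differ, both copies were counted, and the n copy was the higher one in 9 of 11. Sharing moved with this: in 9 of the 11 pairs the copy with more counts was the one with fewer shared words, the exceptions being the pairs of Trav9n-4 and Trav8n-2, and its part in the difference was not tested. Trav9n-4 and Trav9d-4, with exon lengths of 595 (n) and 565 bases (d), had 255 (n) and 29 counts (d). How many of their 30 differences are unpaired bases was not separated. Trav7n-4 and Trav7d-4 had 602 (n) and 204 counts (d), with 49.3% (n) and 78.1% (d) of their words shared. The d copy was the higher one for Trav14n-3 and Trav14d-3-dv8, given above, and for Trav6n-5, which had 169 counts with 84.1% of its words shared, against 336 counts and 43.9% for Trav6d-5. Among these 11 pairs, the one with a single counted member was Trav6n-6, with 455 counts, and Trav6d-6, with none. Trav6d-6 has the same V exon as Trav6-6, which had no count either. Of the pairs left out because they hold a pseudogene, those with a count went both ways. Trav9d-1 had 207 counts against 95 for Trav9n-1, and Trav15d-3 had 87 against none for Trav15n-3. Trav11n had 59 counts against 5 for Trav11d.

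V genes outweighed pseudogenes. V genes had 46.7, 122, 42.7 and 117 counts per segment, against 4.1, 13.5, 4.25 and 12.6 for pseudogenes, a log2 ratio of 3.31 ± 0.15 (9.89-fold, higher for V genes in 4 of 4 libraries, exact two-sided sign-flip test, p = 0.125, adjusted p = 0.125, 108 against 20 segments). As a difference of medians of log2(CPM+1) it was 0.93. The pseudogenes took 1.85% ± 0.185 of the Trav counts, and 10 of the 20 were counted. Trav8-2 led them with 286 counts over the 4 libraries, a share of 0.763% ± 0.108 and 16.4 ± 2.67 TPM. Trav9n-1 (95 counts), Trav15d-3 (87 counts) and Trav11n (59 counts) followed.

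Segments open to the delta chain and to invariant T cells had very different counts, and some of them could hardly be counted. The 10 segments with dv in their symbol took 18.0% ± 0.937 of the Trav counts, or 10.5% ± 0.45 without Trav14d-3-dv8. Trav15d-2-dv6d-2 had no count, which gives no level because all of its words are shared. Next to those named above stood Trav13-4-dv7 (1.06% ± 0.326), Trav16d-dv11 (0.692% ± 0.193) and Trav15-2-dv6-2 (0.585% ± 0.125). Trav1, which shares no word with another gene, had 23, 56, 19 and 53 counts (0.421% ± 0.0191, 8.20 ± 0.452 TPM). The Trav11 family had 65 counts, 59 of them from the pseudogene Trav11n. The V genes Trav11 and Trav11d share 100% of their words with other genes, so their counts give no level for them. The delta constant gene Trdc stood at 8.37 ± 0.874 TPM, and the list of 5 gamma-delta T cell markers summed to 8.88 to 13 TPM, so the alpha chain constant gene was far above it. The innate-like T cell markers Zbtb16 and Klrb1c summed to 0.585 to 1.06 TPM. The part of such cells in the Trav counts was not tested.

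No Trav gene stood out between libraries. Of the 67 Trav genes that passed the filter on low counts, none was called variable between the 4 libraries by edgeR at an adjusted p of 0.05, beside 142 of 12554 genes tested overall (1.13%). With 1.13% as the background, 0 of 67 is not a result about Trav. At an unadjusted p under 0.05 there was 1, Trav7d-3, with 21, 65, 6 and 60 counts in replicates 1 to 4 and an adjusted p of 0.738 in edgeR. With size factors and fitted dispersions from DESeq2 in the same kind of deviance test, 0 were called and 0 had an unadjusted p under 0.05. Between libraries, Spearman's rho over segments was 0.935 to 0.967 in the 6 pairs, and 6.20 to 10.7% of the Trav counts would have to move between segments to turn one library's shares into another's. The spread was still larger than counting alone gives: chi-square per degree of freedom over the 67 segments was 2.27. It was 1.80 to 2.81 in single pairs of libraries, so no pair was taken as 1 library deposited more than once.

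The observed spread differed between single segments, but it includes counting error and the spreads were not tested against each other. Over the 67 segments, the coefficient of variation of the share had a median of 14.6% and ran from 0.822 to 44.6%. Trav7-4 was the steadiest, at 2.11, 2.09, 2.11 and 2.07% of Trav counts. Trav7d-3 was the most variable, at 0.409, 0.484, 0.128 and 0.467%, on 6 counts in replicate 3. Among the first 15 segments, the median was 9.34%, and Trav14-2 varied most, with 3.26, 4.43, 5.03 and 3.95%, lowest in replicate 1.

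Receptor genes of CD4 T cells were abundant, and the recombinase genes were at or near 0. All 12 receptor genes listed had a count and 11 had one in every library, with Trbc2 at 2840 ± 55.7 TPM, Trbc1 at 1916 ± 90.0 TPM, the signalling chain Cd3d at 794 ± 22.5 TPM and the coreceptor Cd4 at 1067 ± 31.4 TPM, against 0.794 ± 0.288 TPM for Cd8a and 39.95 ± 2.55 TPM for Cd8b1, the chains of the CD8 coreceptor. The pre-T cell receptor gene Ptcra had 1 count in all. Of the 12 recombination genes, Rag2 had no count and Rag1 had 1. Dntt, the transferase that adds bases at the joints in the thymus, stood at 26.6 ± 3.16 TPM, and the repair genes Paxx (74.0 ± 5.86 TPM), Atm (59.4 ± 4.72 TPM) and Lig4 (8.49 ± 0.969 TPM) were present. None of the 11 receptor genes and none of the 10 recombination genes that passed the filter was called variable, against 1.13% of all genes.

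The markers that define regulatory T cells were low beside the general T cell genes. The 5 markers summed to 125 to 138 TPM, of which Tnfrsf18 gave 107 ± 3.80 TPM. Foxp3, the factor that defines these cells, stood at 8.28 ± 0.867 TPM, Ctla4 at 7.77 ± 0.959 TPM and Ikzf2 at 1.34 ± 0.194 TPM. Il2ra, a chain of the interleukin-2 receptor, was the 1 marker of the 5 called variable by edgeR, at 6.22, 3.63, 9.13 and 3.11 TPM in replicates 1 to 4. Among the lists of other cells, the 4 B cell markers were all called variable, against 1.13% of all genes tested. They summed to 87.4, 52.6, 48.3 and 17.3 TPM in replicates 1 to 4. Trav CPM in replicates 1 to 4 was 200.6, 216, 204 and 207, lowest in replicate 1 and highest in replicate 2. The part of other cells in the Trav values was not tested. The 3 macrophage markers summed to 1.22 to 3.48 TPM.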

How the data were processed

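The 4 deposited tables give raw counts of fragments for each gene. Per the file headers, the authors ran featureCounts 1.4.6-p4 on paired alignments named for STAR, with GENCODE M13 exons on mm10, both ends aligned and strand setting 2 (reverse-stranded). Per these headers, neither fragments with several alignments nor fragments across several genes were asked for, so both kinds are absent. The sources used here do not give the read length. Exon lengths came from the same deposited tables.

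The members and lists were chosen with earlier results of these data known. Symbols, biotypes, 1-based coordinates and transcripts are those of GENCODE M21, also mm10, found for 50376 of 50600 genes. TPM was computed from counts and exon length. Shares are percentages of the summed Trav counts in a library. Word sharing counts each 50-base word of a segment's M21 transcripts that occurs, on either strand, in a transcript of another gene at another position. Variability between libraries used edgeR 4.0.16 (R 4.3.3): filterByExpr, TMM, an intercept-only quasi-likelihood fit and the residual deviance against chi-square, Benjamini-Hochberg adjusted over 12554 genes. An alternative took size factors and fitted dispersions from DESeq2 1.42.0 into an edgeR fit with the same kind of deviance test. The edgeR step was tested on simulated data. Ratios between groups of segments used exact sign-flip tests over 4 libraries. Python 3.11.15 with pandas 2.3.3, numpy 2.4.6 and scipy 1.17.1 gave the other values, and matplotlib 3.10.9 the plots.

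Segments were named if among the 15 highest by share, with dv in the symbol, in the Trav1 or Trav11 families, highest of a family with at least 2% of counts, or, up to 8 names, without a count. Other segments named, including those in the pairs of copies, were chosen after their values were seen. The replicate number in the file header matched the label in 4 of 4 files. Intervals and limits cover counting error only, since the fragments carry no molecular identifiers as far as the sources say.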

Additional observations from a re-analysis of the deposited data

Results flagged for a closer look

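A gap test for 1 sample far from the other 3 (Dixon's ratio above its 95% critical value) was run on the shares of the 58 items described, and 3 segments met it, where chance alone gives about 1 in 20. Trav9-1 took 3.03% of the Trav counts in replicate 4, above 2.28, 2.30 and 2.41% in replicates 1 to 3. Trav13-1 took 4.86% in replicate 3, above 3.72, 3.83 and 3.71% in replicates 1, 2 and 4. Trav2 took 0.312% in replicate 1, above 0.246, 0.256 and 0.257% in replicates 2 to 4, on 16 counts in replicate 1. None of the 3 was called variable by edgeR (adjusted p = 1.00 for each).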

How the results depend on the processing

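Leaving out each library in turn kept the direction and size of each ratio between groups of segments: 2.87 to 2.96 for J-proximal over J-distal, 3.24 to 3.35 for V genes over pseudogenes and 1.81 to 1.85 for no suffix over d or n. The call of 0 variable Trav genes held with DESeq2 size factors and dispersions and with size factors of the DESeq2 kind alone. It also held with library totals, with no filter on low counts and without each library. The share of Trav14 ran from 23.9 to 25.3% and the ratio to Trac kept to 0.221 to 0.228 without single libraries or pseudogenes. Per kilobase of exon, the leading segment had 6.38% in place of 7.50%, and Trav per Trac was 0.543 in place of 0.225. As a share of all gene counts, Trav took 0.0207%. With V genes under 50% shared, the ratio of no suffix over d or n was reversed, at -0.42 in place of 1.83. The set of copies then held 10 in place of 62, with Trav14d-3-dv8 and Trav14n-3 among them. What made the ratio turn was not tested. By counts per 100-base word found in no other Trav segment, the ratio of no suffix over d or n was 0.41. This alternative, added after the data were seen, used segments with at least 100 such words (42 against 23). Genes outside Trav were not searched for these words, so Trav7n-6 entered with no count. J-proximal over J-distal was 2.82 per kilobase, 1.95 by medians, 1.77 by 2 bins and 1.49 with segments under 50% shared. No paired analysis was possible because all samples belong to 1 group. Depth differed 2.70-fold between libraries, and it limits the rare segments: 19 of the 86 counted segments failed the filter on low counts.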

Other observations

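Within the span of the Trav genes lie 5 other rows annotated as V genes under other names. Trdv1, a delta chain V segment, had 28, 74, 23 and 74 counts in replicates 1 to 4, and Trdv2-2 had 14, 65, 16 and 74, while Trdv2-1 had 1, 2, 3 and 0. B230359F08Rik, which lies between Trav12-4 and Trav17, had 38, 69, 28 and 63 counts, in the range of the lower Trav genes. C920008G01Rik, among the d copies, had no count. It holds 99.7% of the 50-base words of Trav7n-6, which had none either.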
